A study of Mus musculus with 6 samples.

Results

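HOX genes were followed in iKAP primary cultured mouse cells (culture 3346), labelled as stably expressing a GFP control or an IRF2 open reading frame from a pLenti6.3 construct. The members are all genes that the array's annotation names Hoxa, Hoxb, Hoxc or Hoxd followed by a number, read from probe sets with a single gene symbol, with the probe set of highest mean log2 intensity standing for each gene. This gave 33 HOX genes among 18193 genes on the array, of the 39 HOX genes in RefSeq's mouse catalogue. Hoxb8 and Hoxd4 appeared only in probe sets that carry several symbols, and the remaining HOX genes were not analysed here.

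iKAP names an inducible mouse colorectal cancer model whose engineered alleles include loss of Apc and Trp53, and both groups share its alleles as the same culture. The labels give 3 arrays of cells expressing GFP and 3 of cells labelled as expressing the IRF2 open reading frame, with growth in DMEM and a tetracycline-free supplement in both. The culture carries 1 number in every label, so it stands for a single line, and separate cultures for the 3 arrays of a group are not stated. The p-values therefore cover only array-to-array spread within a group, which may be technical.

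HOX proteins are homeodomain transcription factors that tell cells where they lie along the head-to-tail axis. Their genes stand in clusters in which the order on the chromosome follows the order of expression along the body, so that low paralog numbers mark anterior and high numbers posterior positions. They bind DNA together with TALE cofactors of the PBX and MEIS families, are switched on by retinoic acid and CDX factors in the embryo, and are held silent by Polycomb complexes. In the gut the posterior paralogs are known as genes of the hindgut and colon, and a HOX pattern of this kind often persists in cultured cells.

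The regions just before the annotated start of the 5 HOX genes with the smallest p are shown because these genes carry the differences described below. Each stretch holds 250 bases before the start, read 5′ to 3′ on the gene's strand, from RefSeq on GRCm38.p6, with motif matches in capitals (a match on the other strand shows as its reverse complement).
Hoxd8, chr2:74704365-74704614, plus strand: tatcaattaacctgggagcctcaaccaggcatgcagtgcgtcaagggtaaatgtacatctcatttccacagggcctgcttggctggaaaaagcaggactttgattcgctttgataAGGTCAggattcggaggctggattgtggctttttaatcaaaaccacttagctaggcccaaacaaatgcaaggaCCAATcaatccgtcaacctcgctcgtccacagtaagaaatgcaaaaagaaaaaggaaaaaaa
Hoxd9, chr2:74697513-74697762, plus strand: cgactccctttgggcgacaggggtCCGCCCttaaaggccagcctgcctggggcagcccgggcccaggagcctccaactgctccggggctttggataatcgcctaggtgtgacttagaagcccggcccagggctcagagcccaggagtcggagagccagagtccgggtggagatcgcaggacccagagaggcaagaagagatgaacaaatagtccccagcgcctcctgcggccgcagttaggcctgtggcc
Hoxd10, chr2:74691641-74691890, plus strand: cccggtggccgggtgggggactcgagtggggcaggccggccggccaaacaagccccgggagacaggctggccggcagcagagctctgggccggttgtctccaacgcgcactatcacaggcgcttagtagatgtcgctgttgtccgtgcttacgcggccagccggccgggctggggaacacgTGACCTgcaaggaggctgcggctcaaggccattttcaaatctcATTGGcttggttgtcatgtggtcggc
Hoxd12, chr2:74674763-74675012, plus strand: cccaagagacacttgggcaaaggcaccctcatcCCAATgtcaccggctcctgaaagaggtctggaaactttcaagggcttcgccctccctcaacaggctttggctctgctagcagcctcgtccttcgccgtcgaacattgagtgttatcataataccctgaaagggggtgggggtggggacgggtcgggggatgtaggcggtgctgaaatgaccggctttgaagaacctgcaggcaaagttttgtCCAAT
Hoxa5, chr6:52204588-52204837, minus strand: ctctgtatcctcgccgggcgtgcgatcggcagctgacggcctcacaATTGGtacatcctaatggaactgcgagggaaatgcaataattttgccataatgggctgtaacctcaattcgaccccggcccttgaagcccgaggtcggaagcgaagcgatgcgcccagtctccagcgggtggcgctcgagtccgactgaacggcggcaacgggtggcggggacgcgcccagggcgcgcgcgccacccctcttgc

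The motifs searched on both strands were the interferon regulatory factor element (a GAAA repeat with a 2-base spacer of any letters), AGGTCA (the half-site of retinoid and related nuclear receptors), CCAAT (bound by the factor NF-Y in many promoters), GGGCGG (the GC box) and TATAAA (the TATA box). No match overlapped another. Hoxd8 and Hoxd10 each held an AGGTCA half-site, at -135 and -69 from the start, and Hoxd8, Hoxd10, Hoxd12 and Hoxa5 each held CCAAT at least once. Hoxd9 held a GC box and none of the other letters searched. The interferon regulatory factor element was in none of the 21 windows of the 19 HOX members that the table holds, and in 2.98% of all 32851 windows of the same length. AGGTCA was in 23.8% of the HOX windows and 14.02% of all, CCAAT in 52.4% and 33.85%, GGGCGG in 38.1% and 32.74%, and TATAAA in 9.5% and 12.37%. The HOX windows had a median GC content of 59.2%, against 52.4% over all. A match is a description of letters and not of a bound site.

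The gene named in the labels was read first. Irf2 intensity was 65.4, 60.5 and 62.0 on the GFP control arrays and 37.0, 36.6 and 35.2 on the arrays labelled IRF2, a log2 difference of -0.79 (SE 0.06, limma adjusted p = 1.73e-07). This direction goes against the label, so the group is called "labelled IRF2" throughout, and every direction below is between arrays as labelled. The name of the Irf2 probe set marks probes shared between transcripts. The labels do not give the species of the open reading frame, the region this probe set reads was not used here, and an exchange of the labels was not tested. Were the labels exchanged, every direction below would turn. Over all genes, 4642 of 12795 passed the test, which is 36.3%. Array medians ran from 18.2 to 18.7, so the 6 arrays shared a scale, and 3 control probe sets for tryptophan genes, which no mouse transcript should fill, read 3.69 to 6.52.

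The labels name no tissue beyond the iKAP cells, so markers of several cell types were read. In such bulk RNA, fewer cells of a type and less RNA per cell cannot be told apart. Of 12 intestinal epithelial markers, 10 lay above the intensity filter (a mean intensity of 11.3, the 40th percentile of probe sets), with Vil1 and Krt20 under it. Their summed intensity ran from 14565 to 14701 under GFP and from 16062 to 16190 under the IRF2 label. That sum adds probe sets of different scale and is carried by the keratins, with Krt8 alone at 3533 and 4999 in the group means, so it does not speak for the list. Of the 10, 2 rose (Krt8 by 0.50, SE 0.02, and Krt18 by 0.08, SE 0.02) and 3 fell. The share that passed was 50% here and from 20% to 40% in the other marker lists below. Over all genes it was 36.3% (16.5% higher and 19.8% lower). The adhesion genes Cdh1 and Cdh17 fell by 0.75 (SE 0.04) and 0.57 (SE 0.03), and Epcam fell by 0.81 (SE 0.11; -0.43 averaged over its probe sets). The fibroblast markers summed to 161 to 169 and 167 to 175, with Col1a1, Lum, Thy1, Fap and Postn of 10 under the filter, and Pdgfra higher by 0.70 (SE 0.10; 0.36 averaged over its probe sets) and Pdgfrb lower by 0.40 (SE 0.08; adjusted p = 0.0727 averaged over its probe sets). The smooth muscle markers summed to 155 to 169 and 183 to 195, with Myh11, Cnn1 and Actg2 of 6 under the filter and Acta2 higher by 0.37 (SE 0.06), a call lost averaged over its probe sets (0.10, adjusted p = 0.229). Endothelial markers summed to 98.5 to 109 and 90.8 to 102, with Pecam1, Tek and Tie1 of 6 under the filter and Egfl7 lower. Immune markers summed to 267 to 301 and 295 to 307, with Ptprc, Adgre1 and Itgam of 8 under it and Cd14 higher. Egfl7 and Cd14 no longer passed in 3 and 4 of the 6 fits lacking 1 array. The part of these shifts in the HOX results was not tested.

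Across the family, 23 of the 33 HOX genes lay above the filter. They were 8 of the 9 HOXA genes (chromosome 6), 6 of the 9 HOXB genes (chromosome 11), 3 of the 7 HOXC genes (chromosome 15) and 6 of the 8 HOXD genes (chromosome 2). By paralog number, 12 of the 14 genes of groups 9 to 13 were above it, as were 8 of the 12 of groups 4 to 8 and 3 of the 7 of groups 1 to 3. Over the whole array 12795 of 18193 genes were above it, a share much like that of the HOX family. Intensities of different probe sets are not on a common scale, so only the side of the filter is given and no HOX gene is ranked above another. Just under the filter lay Hoxb2 and Hoxc13, with mean intensities of 11.0 and 10.9, and just above it Hoxc5 at 11.3 and Hoxc6 at 15.9.

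**Figure D1:**
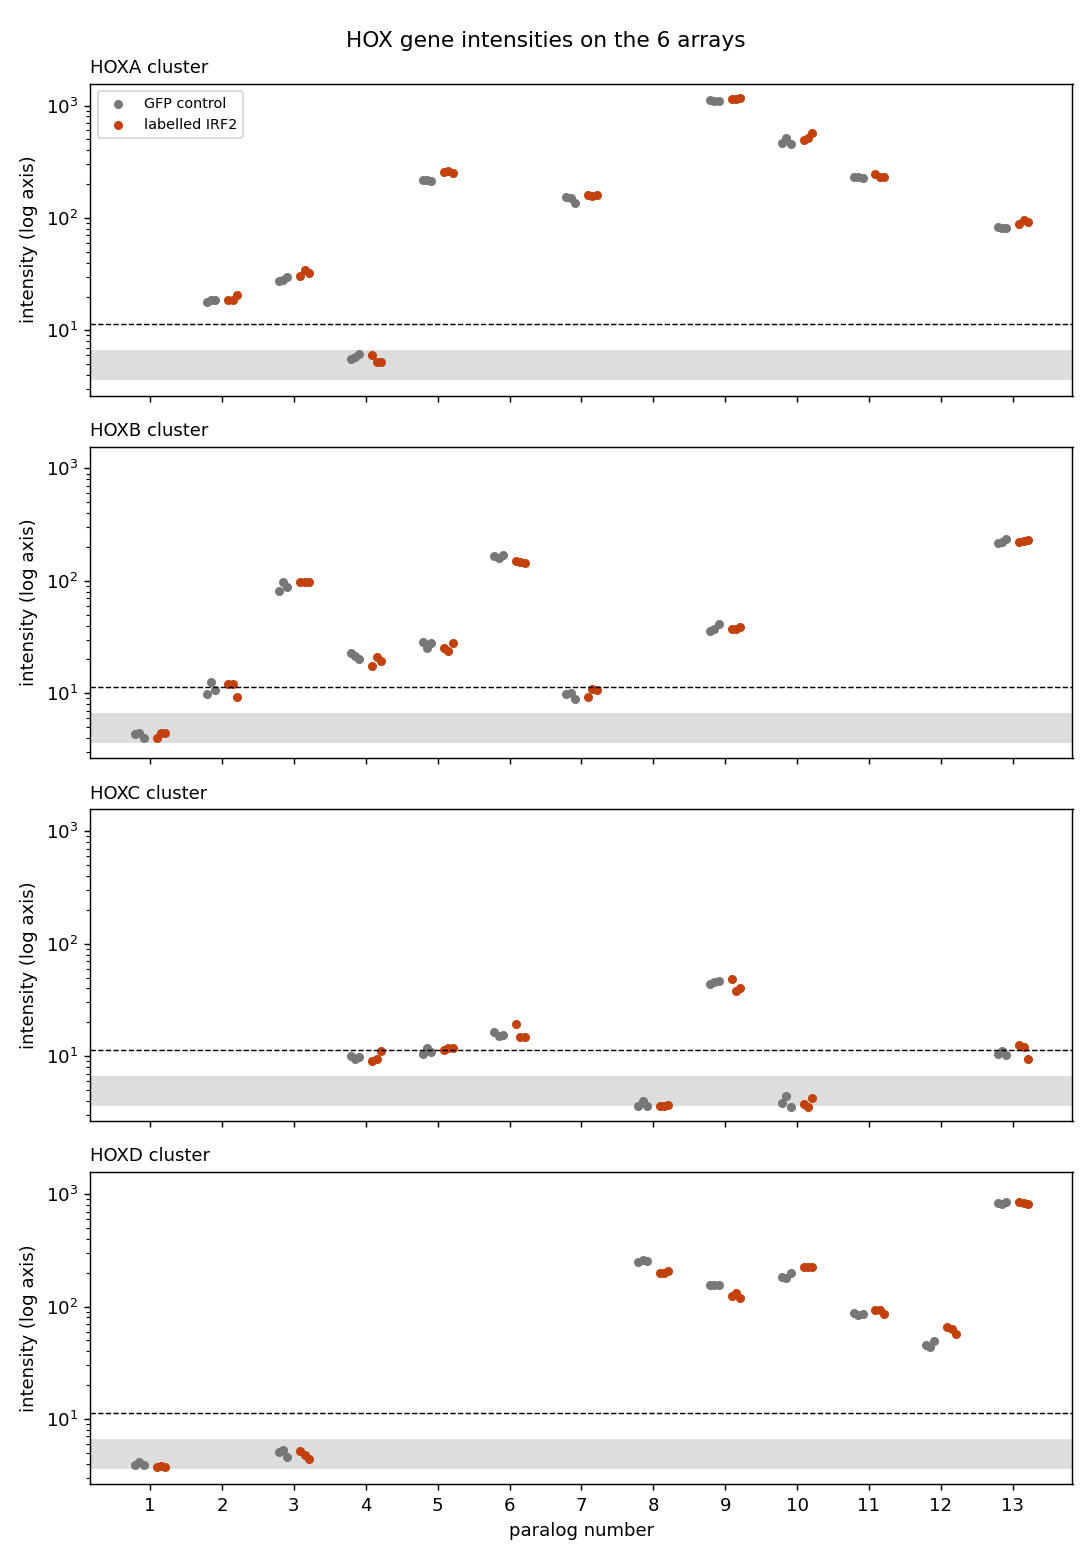
Intensity (log axis) of 33 HOX genes by paralog number, in 4 panels for the clusters, with 1 point per array, grey for GFP control and rust for arrays labelled IRF2. The dashed line is the filter at 11.3 and the grey band spans the tryptophan controls, 3.69 to 6.52. HOXD genes from Hoxd8 upward stand above the line and Hoxd1 and Hoxd3 within or near the band, and the HOXC genes do not exceed 48.4.

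The 10 genes under the filter were Hoxa4, Hoxb1, Hoxb2, Hoxb7, Hoxc4, Hoxc8, Hoxc10, Hoxc13, Hoxd1 and Hoxd3. Their intensities ran from 3.51 to 12.7, and 6 of the 10 never exceeded the tryptophan controls on any array. In a fit of all genes without the filter their log2 differences lay between -0.08 and 0.09, none passed, and the smallest adjusted p was 0.543 (unadjusted 0.307). That fit called 24.9% of all genes, and its groups did not overlap for 36% of them. Among these 10 they did not overlap for 1, Hoxd1, at 3.88, 4.14 and 3.88 against 3.71, 3.81 and 3.74, which are readings at the level of the controls. Probe sets that carry 2 symbols were not tested. The pair shared by Hoxd4 and Hoxd3 lay above the filter, at 17.4 ± 0.94 and 13.1 ± 2.11 (SD, n = 3) on the GFP control arrays. The one shared by Hoxb8 and Hoxb7 lay under it, at 8.26 ± 0.407.

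Of the 23 genes tested, 4 rose and 3 fell on the arrays labelled IRF2. Hoxa5, Hoxa13, Hoxd10 and Hoxd12 rose, and Hoxb6, Hoxd8 and Hoxd9 fell. The share that passed, 30.4%, was near the 36.3% over all genes, and in each direction the background was 16.5% higher and 19.8% lower. For 11 of the 23 (47.8%) the GFP control arrays and the arrays labelled IRF2 did not overlap, against 46.2% of all genes tested. The median log2 difference was 0.05, against -0.00070 over all genes, and no HOX gene differed by more than 1.33-fold in either direction. In number the calls of the family were thus near the background.

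**Figure D2:**
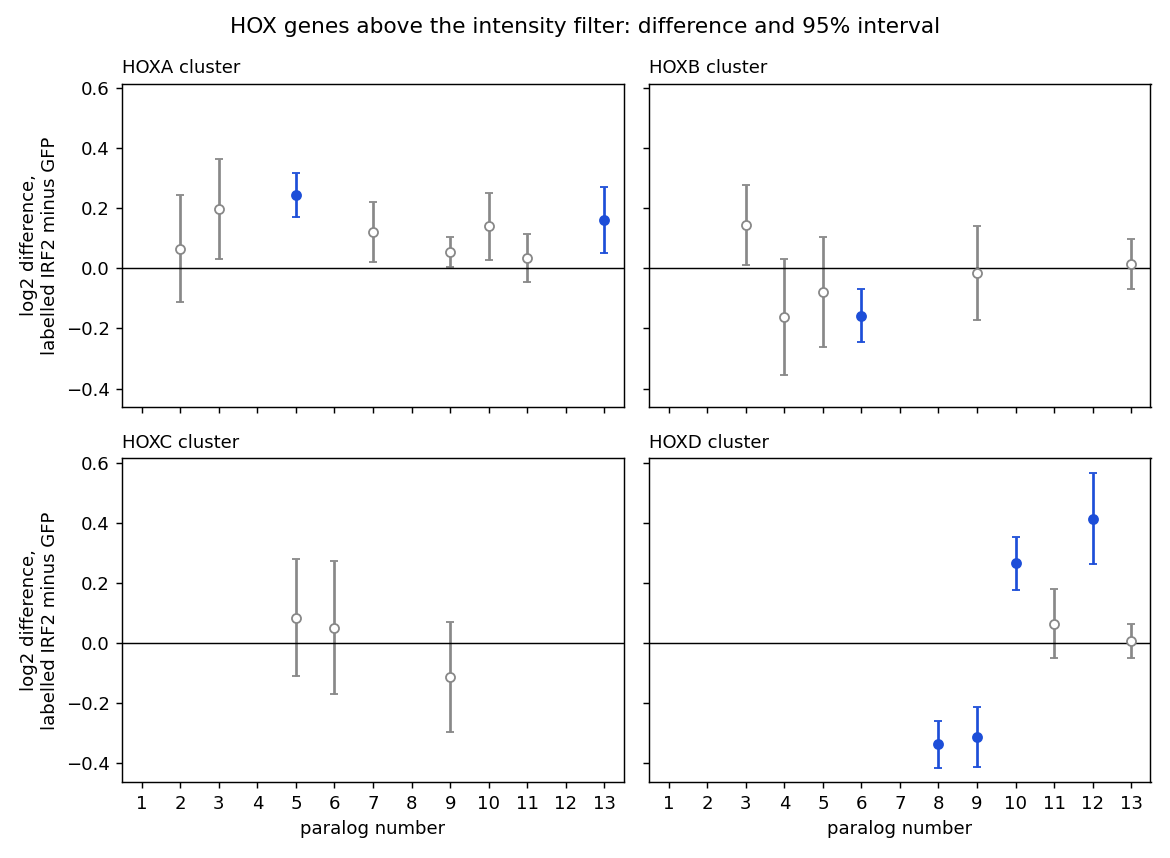
Log2 difference (labelled IRF2 minus GFP control) with its 95% interval for the 23 HOX genes above the filter, by paralog number and cluster, with filled blue points for genes that passed at an adjusted p of 0.05. In the HOXD panel Hoxd8 and Hoxd9 lie at -0.34 and -0.31 and Hoxd10 and Hoxd12 at 0.26 and 0.41, and all 8 HOXA points lie above 0.

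The HOXD cluster held differences in both directions. HOXD genes pattern the limbs, genitals and caudal trunk, and their genes are known to be driven by regulatory domains on both flanks of the cluster. Of its 6 tested genes, 2 fell and 2 rose, with Hoxd11 and Hoxd13 not passing. The share that passed was 66.7% of these few genes, beside 36.3% over all genes (16.5% higher and 19.8% lower). The 2 that fell, Hoxd8 and Hoxd9, have the lowest paralog numbers among the tested HOXD genes and lie next to each other in the series of paralogs.

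Hoxd8, a trunk-patterning gene, read 249, 261 and 257 on the GFP control arrays and 199, 201 and 207 on the arrays labelled IRF2. The groups did not overlap, and the arrays labelled IRF2 were lower by 20.8% in the mean (log2 difference -0.34, SE 0.04, limma adjusted p = 3.42e-06). Its other probe set, whose name marks probes shared between transcripts, read 103, 92.0 and 99.1 against 81.1, 78.7 and 71.2, a difference of -0.35 (SE 0.06). Both probe sets of Hoxd8 thus gave a fall of like size.

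Hoxd9, which acts in the forelimb and lumbosacral spine, read 156, 155 and 156 on the GFP control arrays and 125, 132 and 119 on the arrays labelled IRF2. Every array labelled IRF2 was below every control array (log2 difference -0.31, SE 0.05, adjusted p = 7.71e-05). The control arrays lay within an SD of 0.978, and the arrays labelled IRF2 spread more widely, with an SD of 6.61.

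Hoxd10, which patterns the hindlimb and its motor neurons, read 183, 179 and 198 on the GFP control arrays and 224, 225 and 224 on the arrays labelled IRF2. The groups did not overlap (log2 difference 0.26, SE 0.04, adjusted p = 1.28e-04). Hoxd12, a gene of the distal limb, read 45.8, 43.9 and 49.3 against 65.6, 62.7 and 57.0. It was the largest difference in size among the tested HOX genes, 33.3% higher in the mean (log2 difference 0.41, SE 0.07, adjusted p = 2.77e-04; 0.32 with 16 added before the log).

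Hoxd11 and Hoxd13 stood among and beyond these genes without passing. Hoxd11, which shapes the forearm and kidney with its paralogs, read 88.3, 84.8 and 86.3 on the GFP control arrays and 92.6, 93.2 and 85.6 on the arrays labelled IRF2, and its groups overlapped (log2 difference 0.06, SE 0.05, adjusted p = 0.397). Hoxd13, a gene of the digits and hindgut end, read 827, 824 and 861 against 858, 838 and 826. Its difference was 0.01 (SE 0.03, adjusted p = 0.888), with a 95% interval from 0.966-fold to 1.04-fold. A change of Hoxd13 as large as that of Hoxd10 or Hoxd8 lies outside that interval. Its other probe set differed by 0.02 (SE 0.04).

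**Figure D3:**
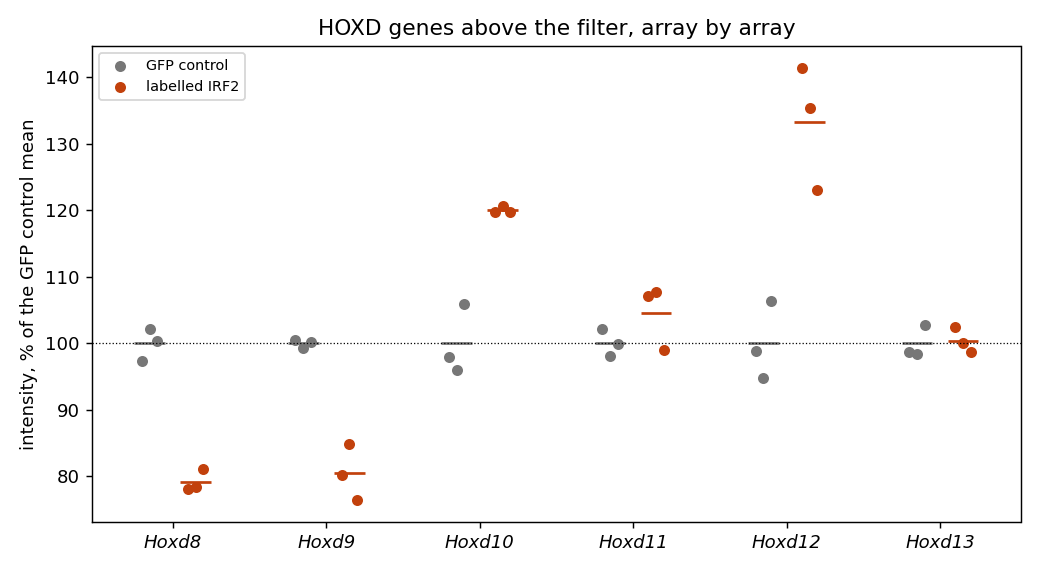
Intensity of the 6 tested HOXD genes on each array as a percent of the gene's GFP control mean, with horizontal lines at the group means. The arrays labelled IRF2 lie below all control arrays for Hoxd8 and Hoxd9 and above them for Hoxd10 and Hoxd12, and the groups overlap for Hoxd11 and Hoxd13.

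An opposite-strand transcript of the HOXD cluster also fell. Hoxd3os1, transcribed on the other strand at Hoxd3, read 30.6, 37.4 and 32.9 on the GFP control arrays and 27.5, 29.3 and 25.8 on the arrays labelled IRF2 (log2 difference -0.29, SE 0.09, adjusted p = 0.0165). The groups did not overlap, but the call was lost without the replicate 2 GFP control array (-0.21, adjusted p = 0.0863) and without replicate 3 of the IRF2 label (-0.24, 0.0708). Hoxd3 itself was under the filter. Of the genes beside the cluster, Lnpk fell by 0.18 (SE 0.04), and Evx2, Mtx2 and Atp5g3 did not pass. These transcripts were chosen by position, after values had been seen.

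In the HOXA cluster all 8 tested genes read higher on the arrays labelled IRF2, with log2 differences from 0.03 to 0.24 and a median of 0.13, but 2 passed. The share that passed was 25%, beside 36.3% over all genes (16.5% higher and 19.8% lower). All 8 nonetheless read higher. That sign held for each of the 8 in the alternatives that can change a difference. These were the offset before the log, quantile normalization, the mean of probe sets and leaving out each array. The other alternatives leave the difference of a gene's probe set as it was, so they cannot test its sign. Whether 8 of 8 is more than the background of all genes was not tested. Under quantile normalization Hoxa7, Hoxa9 and Hoxa10 passed too, which brought the HOX genes that rose to 7. The ninth HOXA gene, Hoxa4, was under the filter at -0.08.

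Hoxa5, which patterns the trunk and the developing lung and gut, read 218, 219 and 214 on the GFP control arrays and 257, 260.3 and 254 on the arrays labelled IRF2. The groups were far apart relative to their SDs of 2.52 and 3.36 (log2 difference 0.24, SE 0.03, adjusted p = 4.23e-05). Its other probe set differed by 0.18 (SE 0.04), from 153 ± 2.06 to 174 ± 5.38 (SD, n = 3 each). Hoxa13, the paralog of the hindgut, digits and genital tubercle, read 83.5, 81.0 and 81.9 against 89.2, 94.9 and 91.3. The groups did not overlap and Hoxa13 rose by 0.16 (SE 0.05, adjusted p = 0.0228), but 3 of the 6 fits lacking 1 array no longer called it: without GFP control replicate 2 (adjusted p = 0.0598), GFP control replicate 3 (0.0593) or replicate 2 labelled IRF2 (0.0972; range over all alternatives 0.0094 to 0.0972).

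Other posterior HOXA genes differed by less. Hoxa9, known from blood progenitors and leukaemia, read 1113, 1107 and 1096 on the GFP control arrays and 1133, 1138 and 1171 on the arrays labelled IRF2. The groups did not overlap, yet the difference of 0.05 (SE 0.02) did not pass (adjusted p = 0.0802), and its dimmer probe set gave 0.09 (SE 0.03). Hoxa10, a gene of the uterus and lumbar spine, read 464, 515 and 454 against 494, 510.1 and 574, with overlapping groups (0.14, SE 0.05, adjusted p = 0.0503). With the replicate number as a block Hoxa10 passed (adjusted p = 0.0146). Hoxa11, which acts in kidney, limb and uterus, read 232, 233 and 227 against 247, 231 and 231 and did not pass (0.03, SE 0.04, adjusted p = 0.534).

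Among the anterior and central HOXA genes, Hoxa5 alone passed. Hoxa7, a trunk paralog, read 152, 149.7 and 137 on the GFP control arrays and 159.6, 157 and 159 on the arrays labelled IRF2, without overlap (0.12, SE 0.05, adjusted p = 0.0554). Hoxa3, needed for the thymus and parathyroid, read 27.2, 28.0 and 29.8 against 30.4, 34.6 and 32.6 (0.20, SE 0.08, adjusted p = 0.0596). The name of that Hoxa3 probe set marks probes shared between transcripts. The other Hoxa3 probe set above the filter gave 0.01 (SE 0.09), so the pair did not give a like difference. Hoxa2, which patterns the hindbrain and the second pharyngeal arch, differed by 0.07 (SE 0.08, adjusted p = 0.600).

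The opposite-strand transcript Hoxa11os, known as an antisense partner of Hoxa11, read 305, 303 and 327 on the GFP control arrays and 343, 357 and 333 on the arrays labelled IRF2 (0.14, SE 0.04, adjusted p = 0.00724). This call was lost averaged over its probe sets (0.0048, adjusted p = 0.970) and without the intensity trend (0.0512). Evx1, the even-skipped homeobox gene at the posterior end of the HOXA cluster, fell from 31.8 ± 1.71 to 27.1 ± 0.545 (SD, n = 3 each; -0.23, SE 0.07, adjusted p = 0.0217). It no longer passed without the replicate 1 GFP control array or without the replicate 3 array labelled IRF2, with an adjusted p of up to 0.0976 over its alternatives. Of the nearest 3 protein-coding genes on each side of each cluster, 22 had a named probe set and 20 lay above the filter. Of these 20, 4 rose and 5 fell, beside 16.5% higher and 19.8% lower over all genes.

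**Figure D4:**
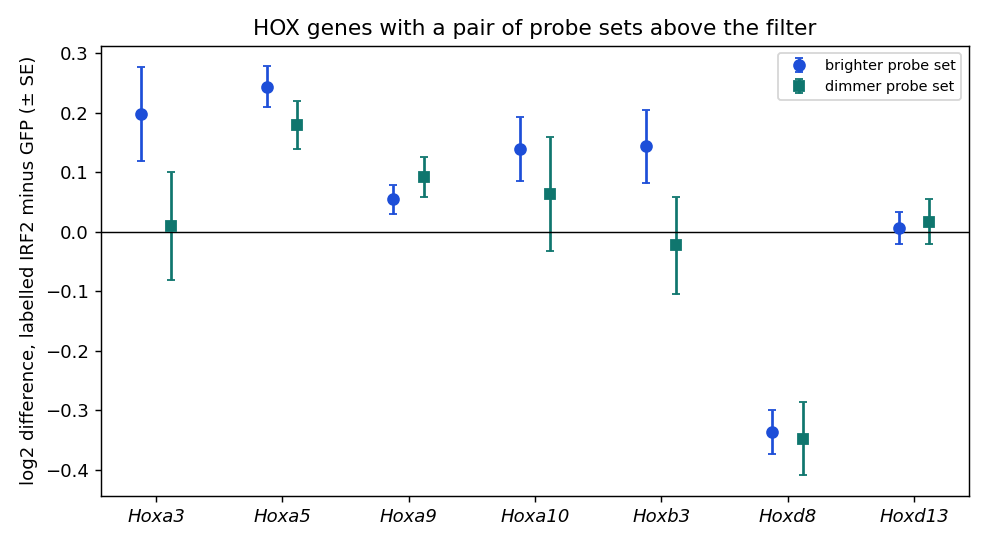
Log2 difference (labelled IRF2 minus GFP control, bars show the SE) of 7 HOX genes with a pair of probe sets above the filter, with the probe set of higher mean log2 intensity as circles and the other as squares. Both probe sets of Hoxd8 lie at -0.34 and -0.35 and both of Hoxa5 above 0.17, and those of Hoxb3 lie on opposite sides of 0.

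In the HOXB cluster 1 of 6 tested genes passed (16.7%, beside 36.3% over all genes). Hoxb6, a central paralog of the trunk and lateral mesoderm, read 166, 159.6 and 169 on the GFP control arrays and 150.3, 148 and 145 on the arrays labelled IRF2. The groups did not overlap and Hoxb6 fell by 0.16 (SE 0.04, adjusted p = 0.00737). Its call held in all 15 alternatives, with an adjusted p of 0.0046 to 0.0395.

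Hoxb13, the most posterior HOXB gene and a known marker of the distal colon and prostate, did not pass. It read 217, 221 and 236 on the GFP control arrays and 222, 227 and 230.3 on the arrays labelled IRF2, and the groups overlapped (0.01, SE 0.04, adjusted p = 0.832). Its 95% interval ran from 0.952-fold to 1.07-fold. Hoxb3, a hindbrain paralog, read 81.0, 97.1 and 88.0 against 98.1, 97.3 and 97.8 and did not pass (0.14, SE 0.06, adjusted p = 0.0861), and its other probe set gave -0.02 (SE 0.08). Without the replicate 2 GFP control array Hoxb3 passed (0.21, adjusted p = 0.0112).

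The remaining HOXB genes were dim and none passed. Hoxb4, known from blood stem cells, read 21.6 ± 1.41 and 19.3 ± 1.72 (SD, n = 3 each; -0.16, SE 0.09, adjusted p = 0.185). Hoxb5, a gene of the enteric nervous system, differed by -0.08 (SE 0.09), and Hoxb9, a thoracic paralog, by -0.02 (SE 0.07). The opposite-strand transcript Hoxb5os differed by -0.03 (SE 0.08, adjusted p = 0.809).

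In the HOXC cluster none of the 3 tested genes passed in the limma fit, and none did so at an unadjusted p under 0.05 (smallest unadjusted p 0.210). Hoxc9, a gene of thoracic identity, read 43.6, 45.6 and 46.8 on the GFP control arrays and 48.4, 37.7 and 40.5 on the arrays labelled IRF2. Replicate 1 labelled IRF2 was the highest of the 6, and without it Hoxc9 passed as lower (-0.21, adjusted p = 0.0479, against -0.11 and 0.351 with it). Hoxc6 differed by 0.05 (SE 0.10) and Hoxc5 by 0.08 (SE 0.09), both near the filter. The 95% interval of Hoxc5 ran from -0.11 to 0.28 and that of Hoxc6 from -0.17 to 0.27, wide enough to hold a difference like that of Hoxd10.

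By paralog number, the differences did not run in a single direction along the clusters. Of the 12 tested genes of groups 9 to 13, 3 rose and 1 fell, and of the 8 of groups 4 to 8, 1 rose and 2 fell, while none of the 3 of groups 1 to 3 passed. The share that passed was 33.3% in groups 9 to 13 and 37.5% in groups 4 to 8, near the 36.3% over all genes. Within group 9, Hoxd9 fell while Hoxa9, Hoxb9 and Hoxc9 did not pass. Within group 13, Hoxa13 rose, and Hoxb13 and Hoxd13 did not pass. Whether paralogs of a group differ from each other was not tested.

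Genes that act with or upstream of HOX, and regional identity genes outside the HOX clusters, were described from 7 lists. In these lists 32 of 91 genes above the filter passed (35.2%), near the 36.3% over all genes. Among the TALE cofactors, the DNA-binding partners of HOX proteins, 3 of 8 rose and 2 fell, with a median log2 difference of 0.09. Tgif1, a TALE repressor, rose by 0.18 (SE 0.03, adjusted p = 1.03e-04) and the PBX partner gene Pknox1 by 0.17 (SE 0.05; adjusted p of 0.0512 and 0.0614 without replicate 1 or 2 labelled IRF2). Meis1 read 18.0, 19.3 and 18.9 on the GFP control arrays and 20.7, 22.7 and 26.5 on the arrays labelled IRF2 (0.31, SE 0.09, adjusted p = 0.0176; 0.12 averaged over its probe sets, adjusted p = 0.151), and no longer passed in 2 of the 6 fits lacking 1 array (without GFP control replicate 1, 0.0572; without replicate 3 labelled IRF2, 0.0971). Meis3 read 34.7, 28.0 and 32.2 against 27.0, 21.1 and 27.6, with a fall of 0.33 (SE 0.11, adjusted p = 0.0238) that no longer passed in 3 of the 6 fits lacking 1 array, nor without the intensity trend. Tgif2, a related repressor, fell by 0.14 (SE 0.05, adjusted p = 0.0495), and in 13 of the 15 alternatives 0 or 1 TALE gene fell in place of 2. Pbx2 and Pbx3 differed by 0.09 and 0.01 (SE 0.04 each) and did not pass.

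Cdx2, the caudal-type factor that sets intestinal identity and activates HOX genes, read 91.4, 91.4 and 97.5 on the GFP control arrays and 81.8, 87.4 and 88.9 on the arrays labelled IRF2. Every array labelled IRF2 was lower than every control array, but the difference of -0.12 (SE 0.05) did not pass (adjusted p = 0.103). Cdx1, Cdx4 and Pdx1 were under the filter. Of the 6 tested genes of this list of ParaHox genes and upstream activators, Lef1, a nuclear effector of Wnt signals, rose by 0.27 (SE 0.05, adjusted p = 3.44e-04) and Evx1 fell. The share that passed was 33.3%, beside 36.3% over all genes.

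Of 13 tested genes of the retinoid pathway, 7 rose and none fell, with a median log2 difference of 0.10. The share that passed was 53.8%, all higher, beside 16.5% higher and 19.8% lower over all genes. Dhrs3, a retinaldehyde reductase, went from 135 ± 3.32 to 212 ± 16.2 (SD, n = 3 each; 0.65, SE 0.05, adjusted p = 1.12e-07). Crabp2, which carries retinoic acid to its receptors, rose by 0.49 (SE 0.04), the retinaldehyde dehydrogenase gene Aldh1a3 by 0.40 (SE 0.04) and the retinol dehydrogenase gene Rdh10 by 0.29 (SE 0.02). The uptake receptor gene Stra6 and the receptor genes Rarg and Rxrb rose by 0.20, 0.16 and 0.10. Rara, Rxra, Rxrg, Aldh1a1, Cyp26a1 and Cyp26b1 did not pass (limma adjusted p from 0.644 to 0.969). The number that rose came to 6 without the intensity trend, averaged over probe sets or with the replicate block, and to 6 or 7 when 1 array was left out. Rarb, a classical retinoic acid target, was under the filter, as was Crabp1, which in the fit without the filter was lower by 0.48 (SE 0.09, adjusted p = 6.42e-04).

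Of 24 tested Polycomb genes, 5 fell and none rose, with a median of -0.01. The share that fell, 20.8%, was near the 19.8% over all genes, while none rose, beside 16.5% over all genes. In either direction the share that passed was thus 20.8%, beside 36.3% over all genes. The number that fell came to 3 without the intensity trend, averaged over probe sets, or without replicate 1 labelled IRF2. With each probe set tested alone, 3 Polycomb probe sets rose and 14 fell, while 31.2% of all probe sets tested passed in either direction. A gene can count more than once there, with 6 probe sets each for Suz12 and Mtf2. The number of Polycomb probe sets tested is not given here, so these counts cannot be set against that share. Eed, a core subunit of the histone H3 methylating complex, read 557, 531 and 539.8 on the GFP control arrays and 475, 488 and 462 on the arrays labelled IRF2 (-0.19, SE 0.03, adjusted p = 1.38e-04), but came to -0.0074 averaged over its probe sets (adjusted p = 0.946). Suz12, its partner, fell by 0.14 (SE 0.03), as did Phc2 (0.14, SE 0.04; adjusted p = 0.0817 without the intensity trend). Scmh1 fell by 0.23 (SE 0.07; -0.13 averaged over its probe sets, adjusted p = 0.231; adjusted p = 0.0567 without replicate 1 labelled IRF2), as did Pcgf6, by 0.13 (SE 0.05). The methyltransferase gene Ezh2 and the ring finger gene Bmi1 differed by 0.03 and 0.00050 (SE 0.03 each) and did not pass. Of 15 Trithorax-group and associated genes, which keep HOX genes active, Aff1 rose by 0.41 (SE 0.04; 0.25 averaged over its probe sets) and Mllt3 by 0.20 (SE 0.04; 0.32 in that mean), while Ash2l fell by 0.23 (SE 0.03) and Dpy30 by 0.09 (SE 0.03; adjusted p = 0.0846 without the intensity trend and 0.0534 without replicate 1 labelled IRF2). Kmt2a, the methyltransferase best known for HOX maintenance, differed by 0.08 (SE 0.06, adjusted p = 0.336). Of the 15, 26.7% passed, beside 36.3% over all genes.

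Regional identity genes outside the HOX clusters included larger differences. Among 12 tested limb, craniofacial and trunk homeobox and T-box genes, 4 rose and 1 fell. The share that passed was 41.7%, and 30.8% among the 13 gut regional factors below, beside 36.3% over all genes. The mesenchymal homeobox gene Prrx1 fell from 205 ± 3.43 to 93.5 ± 5.02 (SD, n = 3 each; -1.13, SE 0.05, adjusted p = 1.33e-10), and the skeletal and skin patterning gene Tbx15 rose from 17.6 ± 1.22 to 36.7 ± 2.46 (1.06, SE 0.08; 0.65 with 16 added before the log). Pitx1, which sets hindlimb identity, rose by 0.48 (SE 0.08; 0.27 with 16 added), Dlx2 by 0.25 (SE 0.03) and Prrx2 by 0.11 (SE 0.03). Among 13 gut regional transcription factors, Onecut2 rose by 0.56 (SE 0.07), and Foxa3, Klf5 and Foxa1 fell by 0.49 (SE 0.09; -0.21 with 16 added), 0.12 (SE 0.03; adjusted p = 0.222 averaged over its probe sets and 0.0622 without the intensity trend) and 0.09 (SE 0.03). Foxa1 no longer passed in 3 of the 6 fits lacking 1 array, nor without the intensity trend (adjusted p = 0.129), nor under quantile normalization (0.0601). Sox2, a foregut gene, was under the filter in both groups.

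**Figure D5:**
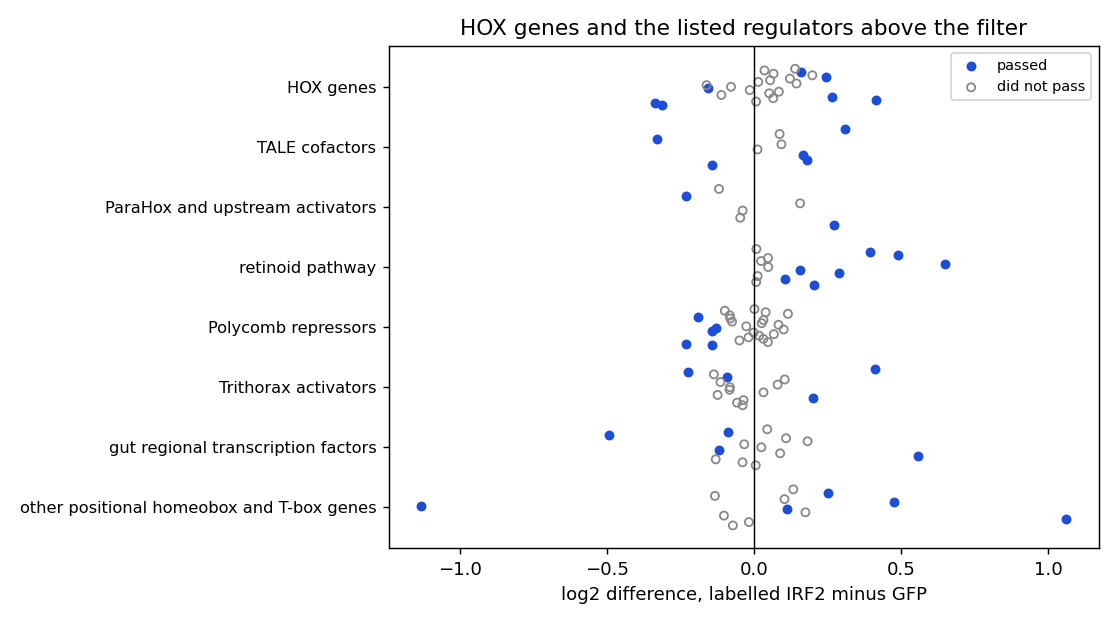
Log2 difference (labelled IRF2 minus GFP control) of each gene above the filter in the HOX family and the 7 lists, with filled blue points for genes that passed. HOX differences run from -0.34 to 0.41, and Prrx1 at -1.13 and Tbx15 at 1.06 lie outside that range.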

How the data were processed

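Total RNA with a biotin label was read on 6 Affymetrix 3′ arrays. The authors deposited a linear intensity for each of 45101 probe sets, between 2.59 and 14181. The submitters' processing notes list MAS5 alone, without saying what it did, so the authors' scaling of these intensities is unknown. Names came from GEO's platform annotation, updated by gene number through RefSeq (GRCm38.p6). Of 45037 probe sets that are not controls, 34945 had 1 symbol, 932 several and 9160 none. No probe sequences or detection calls were used, so signal shared between HOX paralogs was not tested. Some items are not reported here.

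From the deposited values log2 was taken, and limma 3.58.1 (R 4.3.3; lmFit and eBayes, trend on) was run with group as the only term, leaving 4 residual degrees of freedom. The fit took genes whose brightest probe set had a mean log2 above the 40th percentile of non-control probe sets (11.3), 12795 in all. Tests were two-sided, with Benjamini-Hochberg adjustment over these genes and a threshold of 0.05. Differences are labelled IRF2 minus GFP control. Precision is limited by how few arrays there are. The members, lists and tests were chosen with earlier results of these data known. The rule named every HOX gene and up to 4 genes of each list with the smallest p, and genes named beyond it were chosen after their values were seen. Alternatives were 16 added before the log, quantile normalization, no filter or a filter at the 60th percentile, the mean of a gene's probe sets, each probe set alone, no trend, robust eBayes, a replicate block and leaving out each array.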

Additional observations from a re-analysis of the deposited data

How the results depend on the processing

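Every alternative was run. For the 23 tested HOX genes, 314 of 339 values under the 15 alternatives kept the direction and the side of the threshold, 3 lost the call (all for Hoxa13), 15 gained it and 7 changed sign, the last without a call. Changing the filter, the trend, robust eBayes, the replicate block or testing each probe set alone leaves a probe set's difference as it was. Those alternatives can therefore move a call but not a direction. Hoxa5, Hoxb6, Hoxd8, Hoxd9, Hoxd10 and Hoxd12 kept their calls in all 15. Hoxa2, Hoxa3, Hoxb4, Hoxb5, Hoxc5 and Hoxc6 fall under the stricter filter and have 14. The HOX genes that rose numbered 7 under quantile normalization in place of 4. Leaving out 1 array gave 3 to 6 that rose and 3 to 4 that fell. Signs changed for Hoxc6 averaged over its probe sets (-0.0051) and, when 1 array was left out, for Hoxb9 (-0.060 to 0.045), Hoxb13 (-0.0093 to 0.049), Hoxc6 (-0.069 to 0.11), Hoxd13 (-0.0086 to 0.026) and Hoxb5os (-0.086 to 0.0022). Cbx5, beside the HOXC cluster, came to -0.0047 averaged over its probe sets. The listed genes that fell, 14, came to 8 without the intensity trend and to 9 to 14 when 1 array was left out, with 9 without replicate 1 labelled IRF2. Tested singly, 32 probe sets of listed genes rose and 31 fell, in place of 18 and 14 genes, since a gene can then count more than once. The causes of the other shifts were not tested.

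Same-numbered arrays of the groups did not visibly deviate together (correlations 0.07, -0.08 and -0.00080). With 3 arrays a group, this cannot settle whether a number marks a shared culture or day, which the labels do not state. With the replicate block 5 HOX genes rose and 3 fell, and 36.6% of all genes passed. Dim probe sets limit HOXC and the anterior genes most.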
